A study of Homo sapiens with 4 samples.

Results

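Accessible chromatin was examined around 9 genes of the epidermal growth factor receptor system in SKBR3 cells, namely the 3 receptor genes EGFR, ERBB3 and ERBB4 and the 6 ligand genes AREG, EREG, BTC, HBEGF, TGFA and NRG1. The genes were taken by name from GENCODE release 44, and every accessible site within 100 kb of any annotated transcription start of one of them was counted once. This gave 413 of the 307691 sites obtained by merging peaks that overlapped by at least 1 bp across the 4 peak lists on chromosomes 1 to 22 and X. SKBR3 cells are an established line of HER2-positive breast cancer in which ERBB2 is amplified, and open DNA was mapped by ATAC-seq through the insertion of adaptors by the transposase Tn5. Both groups were seeded in DMEM with 10% FBS and starved in optimem for 8 h. The 2 TWEAK libraries came from cells given TWEAK at 10 ng/ml for 48 h, replenished after 24 h, and the 2 untreated libraries came from cells without it. All 4 libraries are from this 1 line. The promoters of all 10 luminal and SKBR3 markers examined, among them ERBB2, KRT8 and FOXA1, carried a peak in every list. Of the markers of other cells, 1 of 4 blood genes, 2 of 3 endothelial, 2 of 3 fibroblast and 0 of 2 liver genes did so, and CD3E and LYZ had a peak in no list.

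EGFR, ERBB3 and ERBB4 are receptor tyrosine kinases that pair with each other and with ERBB2, the receptor amplified in SKBR3, which has no known ligand of its own. AREG, EREG, BTC, HBEGF and TGFA encode membrane-bound precursors whose released forms bind EGFR, some of them ERBB4 as well, whereas neuregulin from NRG1 binds ERBB3 and ERBB4. TWEAK is a cytokine of the tumour necrosis factor family whose receptor Fn14 is known to activate NF-kB transcription factors.

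The sequences below show 3 TGFA sites and an internal EGFR start with large differences, and a weakly gained AREG site shown for its overlapping motif matches. For each site they give the reference bases up to 100 bp on either side of the middle of its highest-ranking peak (hg38, plus strand), read against the consensus of NF-kB and against the AP-1 consensus TGACTCA, on both strands and with overlapping matches counted. Capitals mark a match, and a window in lower case throughout held neither motif. The last one is the RefSeq promoter window of an internal EGFR start (GRCh38.p14, plus strand).
TGFA intron (chr2:70529173-70529373): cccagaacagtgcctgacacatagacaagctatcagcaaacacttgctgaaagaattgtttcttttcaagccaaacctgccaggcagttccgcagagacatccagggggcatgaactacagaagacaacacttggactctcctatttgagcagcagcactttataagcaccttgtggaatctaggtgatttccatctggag
TGFA intron (chr2:70524456-70524656): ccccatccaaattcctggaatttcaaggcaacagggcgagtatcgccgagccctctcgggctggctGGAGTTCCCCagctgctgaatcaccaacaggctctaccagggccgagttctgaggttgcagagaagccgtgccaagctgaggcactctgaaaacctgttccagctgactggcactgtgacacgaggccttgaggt
TGFA intron (chr2:70518081-70518281): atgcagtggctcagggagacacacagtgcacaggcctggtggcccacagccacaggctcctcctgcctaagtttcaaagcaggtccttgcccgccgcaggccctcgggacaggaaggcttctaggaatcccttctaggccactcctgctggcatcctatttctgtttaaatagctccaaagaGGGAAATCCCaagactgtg
AREG downstream (chr4:74546051-74546251): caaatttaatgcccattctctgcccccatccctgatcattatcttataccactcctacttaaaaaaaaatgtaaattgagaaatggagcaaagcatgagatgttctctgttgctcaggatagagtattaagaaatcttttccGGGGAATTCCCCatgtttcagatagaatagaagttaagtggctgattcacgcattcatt
EGFR internal promoter (chr7:55109589-55109888): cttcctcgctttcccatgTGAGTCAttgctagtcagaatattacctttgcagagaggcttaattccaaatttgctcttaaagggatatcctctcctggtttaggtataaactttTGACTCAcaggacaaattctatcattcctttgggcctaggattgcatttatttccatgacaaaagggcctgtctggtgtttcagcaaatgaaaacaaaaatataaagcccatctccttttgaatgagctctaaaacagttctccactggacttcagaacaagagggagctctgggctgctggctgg

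Each list gives a -log10 p-value per peak, and 2 measures were derived from it. The rank percentile places a peak among all peaks of its own list, with 100 as the strongest. The enrichment is the pileup, the number of overlapping fragments that the value implies, divided by the background of the list. The background lay between 1.85 and 3.59 and the lists held between 195315 and 228644 peaks, so the libraries differed in depth, and the weakest peak of a list lay between 2.79 and 3.79 times its background. A site was gained when it had a peak in both TWEAK lists and in neither untreated list, and lost when the pattern was the opposite. A shared site had a peak in all 4 lists, and it was higher or lower when both TWEAK percentiles lay above or below both untreated ones. With 2 libraries against 2, an exact two-sided permutation test of a single site cannot give a p below 0.333, so these are orders of the libraries and not significant changes.

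Near the 9 genes, 23 sites were gained (5.57%), where 3.6% of all sites were, and 10 were lost (2.42%), where 3.79% of all sites were. Of the 413 sites, 174 (42.1%) were shared, close to the 42.8% of all sites, 131 (31.7%) had a peak in 1 list, where 29.2% of all did, and 77 (18.6%) lay within 1 kb of a protein-coding start, where 16.2% of all did. Among the 174, 35 were higher (20.1%), where 15.8% of all shared sites were, and 39 were lower (22.4%), where 35.4% were. The median difference in percentile, TWEAK minus untreated, was -0.50 at these 174 sites and -1.75 at all shared sites. By enrichment, corrected for the median of each library, 44 were higher (25.3%), where 18.5% of all shared sites were, and 45 were lower (25.9%), where 36.4% of all were. A relative difference of at least 1 on the log2 scale was seen at 6 sites (3.45%), against 2.55% of all shared sites. One of at least 2 was seen at 2 sites (1.15%), against 0.322% of all, and one of -1 or below at 0 sites, against 1.32% of all. Above the 50th percentile in both lists, 3 sites were gained (0.726%), near the 0.591% of all sites, and 0 were lost, where 0.21% of all were. Counting sites of any percentile, the genes had more gained and fewer lost or lower sites than the background shares would give. These were small counts with all 4 libraries. Without untreated replicate 1, 34 sites were gained and 54 lost, and without untreated replicate 2 38 were gained and 43 lost, so the order of the 2 counts needed both untreated libraries. Without TWEAK replicate 1 the counts were 42 and 22, and without TWEAK replicate 2 they were 64 and 17. The share of gained sites near the genes exceeded that of all sites each time, for example 8.81% against 6.54% without untreated replicate 1. That of lost sites was below the share of all sites each time, but only barely without untreated replicate 2, at 11.53% against 11.55%. The lost sites were weak, and none lay above the 48.9th percentile of a list. Of the 23 gained sites, 14 lay in introns, 13 of them in an intron of a member, 7 were intergenic, 1 was exonic and 1 lay at a promoter.

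The balance of higher and lower sites depended on the threshold of the lists. When a peak had to reach 5 times the background in every list, 57 sites were higher and 16 lower, and 30.2% and 19.7% of all shared sites were. With a deposited value of at least 5, 46 were higher and 25 lower, against 22.2% and 28.5% of all, and with the same number of top peaks in every list 46 were higher and 29 lower, against 21.8% and 30.1%. The share of gained sites near the genes no longer exceeded that of all sites when a peak had to reach 5 times the background, at 5.86% against 5.90%, and that of lost sites was 0.733% against 2.33%. Under each of the 3 settings the genes had a larger share of higher sites and a smaller share of lower sites than all shared sites.

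**Figure D1:**
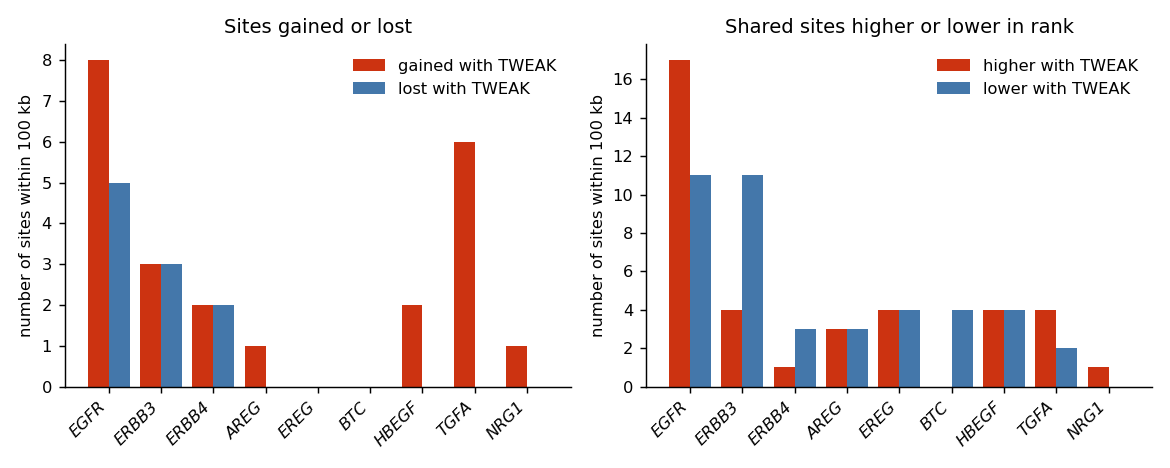
Bars give the number of sites within 100 kb of each gene that were gained or lost (left) and the number of shared sites that ranked higher or lower with TWEAK (right). EGFR had the most higher sites, 17 against 11 lower, and TGFA had 6 gained and 0 lost sites. Of all sites 3.6% were gained and 3.79% lost, and of all shared sites 15.8% were higher and 35.4% lower. AREG and EREG share part of their windows, and such sites are drawn at both.

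EGFR, the receptor of most of these ligands, had 150 sites within 100 kb of its 12 annotated starts, the most of any member. Of its 51 shared sites 17 were higher (33.3%) and 11 lower (21.6%), where 15.8% and 35.4% of all shared sites were. Of its 150 sites 8 were gained (5.33%) and 5 lost, where 3.6% and 3.79% of all sites were. Without untreated replicate 1 both orders turned, with 20 higher and 24 lower, and 11 gained and 23 lost. Over all sites this setting gave 22.3% higher and 54.7% lower, and 6.54% gained and 15.9% lost. Without untreated replicate 2 there were 11 gained and 22 lost, against 7.63% and 11.5% of all sites. With it left out 29 were higher and 11 lower, against 31.4% and 42.8% of all shared sites. Without TWEAK replicate 2 there were 26 gained and 8 lost, against 11.6% and 6.56% of all. Without TWEAK replicate 1 there were 18 and 11, against 9.09% and 9.29%. At 5 times the background 21 were higher and 4 lower, where 30.2% and 19.7% of all shared sites were. No other protein-coding gene has a start in this window. The main promoter site (chr7:55018734-55019248) had percentiles of 94.3 and 94.7 in untreated replicates 1 and 2, and of 95.6 and 95.7 in TWEAK replicates 1 and 2. The enrichment in the same order was 57.4, 67.1, 72.5 and 82.3, so both TWEAK libraries were above both untreated ones, by 1.15 percentile points on average, and by between 1.53 and 2.47 points under the 3 stricter thresholds. The log2 difference in enrichment was 0.32, but 0.07 relative to the median shared site.

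A larger difference lay at an internal EGFR start (chr7:55109292-55109821), whose promoter window is the last sequence above. The enrichment was 8.92 and 7.60 in the untreated and 21.6 and 20.6 in the TWEAK libraries, and the percentiles were 56.4, 48.9, 76.2 and 70.0. The groups did not overlap, and the log2 difference in enrichment was 1.36, or 1.11 relative to the median shared site. The RefSeq window held 2 AP-1 matches and no NF-kB match, and 4.95% of 35116 RefSeq promoter windows hold an AP-1 match. The intronic site chr7:55053581-55054114 also separated the groups, with enrichments of 14.2 and 13.9 without TWEAK and 38.0 and 44.4 with it. Its log2 difference was reached by 1.29% and its difference in percentile by 3.41% of all shared sites. These 2 sites fell outside the rule for named sites and were chosen after their values were seen. All 8 gained EGFR sites were weak, with the best at 4.94 and 7.04 times the background (chr7:54960423-54960983).

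ERBB3, which has little kinase activity of its own and signals through its partners, had 76 sites, of which 35 lay at promoters of other genes, since 12 other protein-coding genes start in its window. The promoter site (chr12:56078874-56079412) had enrichments of 60.5 and 85.9 in the untreated and 64.9 and 75.3 in the TWEAK libraries. These uncorrected values overlapped. The percentiles of 94.8, 96.9, 94.4 and 94.8 placed both TWEAK libraries marginally lower, as did the enrichment corrected for the median of each library, with a relative log2 difference of -0.29. Of its 34 shared sites 4 were higher (11.8%) and 11 lower (32.4%), near the 15.8% and 35.4% of all shared sites. Of its 76 sites 3 were gained (3.95%) and 3 lost, near the 3.6% and 3.79% of all sites. Without untreated replicate 1 there were 5 gained and 13 lost, against 6.54% and 15.9% of all sites. Without TWEAK replicate 2 there were 10 gained and 3 lost, against 11.6% and 6.56%, and 13 higher and 13 lower, against 30.6% and 42.0%. Without TWEAK replicate 1, 5 were higher and 26 lower, where 20.2% and 57.6% of all shared sites were. At 5 times the background the order turned, with 10 higher and 4 lower, as it did over all shared sites, at 30.2% and 19.7%. Among the 5 shared sites with the largest positive differences, the one in this window lay at the promoter of ESYT1 (chr12:56130775-56131340), at 4.46 and 5.37 times the background without TWEAK and 9.49 and 11.4 times with it.

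ERBB4, a receptor for neuregulins and for some EGFR ligands, had 29 sites spread over a long gene. The enrichment at its promoter (chr2:212539066-212539587) was 32.3 and 55.0 in the untreated and 38.4 and 52.0 in the TWEAK libraries, and the groups overlapped. One intronic site stood at 7.25 and 5.37 in the untreated and at 21.6 and 30.3 in the TWEAK libraries. Its percentiles were 48.9 and 33.5 against 76.2 and 79.5, so the groups were well apart, and the log2 difference of 2.04 (1.79 relative to the median shared site) was matched or exceeded by 639 of 131751 shared sites. The mean difference of 36.7 percentile points ranged from 28.9 to 44.4 with a library left out and was 57.4 at 5 times the background. Of 12 shared ERBB4 sites 1 was higher (8.33%) and 3 were lower (25.0%), where 15.8% and 35.4% of all were. Of its 29 sites 2 were gained (6.90%) and 2 lost, where 3.6% and 3.79% of all were. Without untreated replicate 1 there were 2 gained and 6 lost, against 6.54% and 15.9% of all sites. Without TWEAK replicate 1 there were 5 and 4, against 9.09% and 9.29%. The higher and lower counts turned to 3 and 2 at 5 times the background, with values of at least 5 and equal list sizes. Of all shared sites 30.2%, 22.2% and 21.8% were then higher, and 19.7%, 28.5% and 30.1% lower. The counts were 2 and 7 without untreated replicate 1, against 22.3% and 54.7% of all. They were 4 and 4 without untreated replicate 2, against 31.4% and 42.8%.

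**Figure D2:**
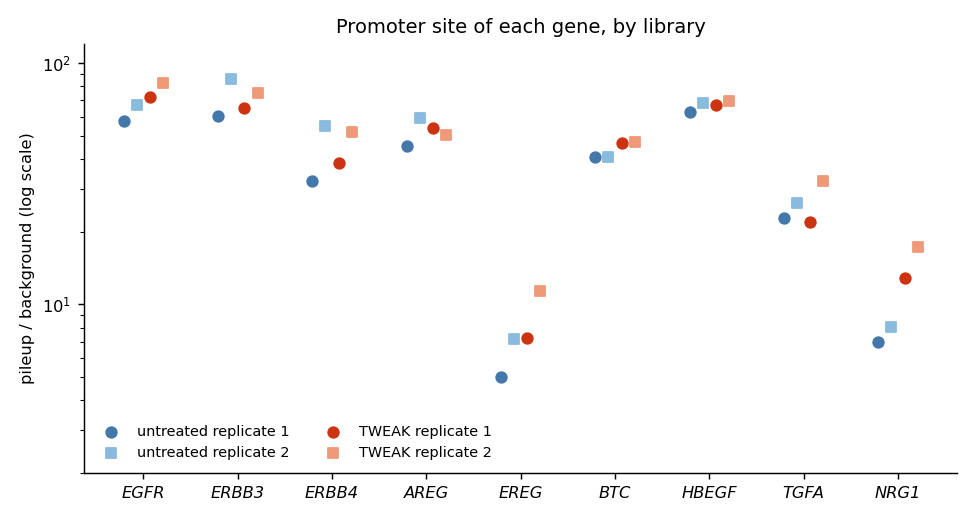
Each point is the enrichment (pileup divided by the background of the list, log scale) of the promoter site of a gene in 1 library, untreated in blue and TWEAK in red. The untreated and TWEAK points overlap or lie close for most genes, whereas NRG1 stood at 6.97 and 8.05 without TWEAK and 12.9 and 17.3 with it.

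Among the ligands, TGFA had the largest differences of all members. It encodes transforming growth factor alpha, an EGFR ligand, and had 40 sites. Of these 6 were gained (15%) and 0 lost, where 3.6% and 3.79% of all sites were. With 1 library left out, between 6 and 11 were gained and between 1 and 2 lost, the most without TWEAK replicate 2, at 11 and 2. Of all sites between 6.54% and 11.6% were then gained and between 6.56% and 15.9% lost. A balance of at least 6 more gained than lost sites was found at 110 of 19708 protein-coding genes with a site (0.558%), counted in windows of the same rule but not matched for their size. Its promoter site (chr2:70554023-70554552) did not take part. The enrichment there was 22.9 and 26.4 in the untreated and 22.03 and 32.5 in the TWEAK libraries, with percentiles of 80.4, 81.6, 76.6 and 81.0 and overlapping groups.

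The largest differences at TGFA lay in its introns. At chr2:70528882-70529551, 23939 bp from the nearest annotated TGFA start, the pileup was 16 and 7 in the untreated and 131 and 117 in the TWEAK libraries, or 4.46, 3.13, 49.8 and 63.4 times the background. The percentile was 27.2 and 3.28 without TWEAK and 91.1 and 92.6 with it, so a barely detectable site stood among the stronger peaks of both treated lists. The mean difference of 76.6 points was reached by 4 of 131751 shared sites, this one included, and the log2 difference was 3.91, or 3.66 relative to the median shared site. A relative log2 difference of at least 3 was seen at 1 member site and at 0.0372% of all shared sites. This window held no NF-kB or AP-1 match (first sequence above). With a deposited value of at least 5, or with equal numbers of top peaks, 1 untreated list held no peak there, and at 5 times the background neither untreated list did, so the site was then no longer shared.

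A second intronic site of TGFA, chr2:70524280-70524806, was already open without TWEAK. Its enrichment was 13.7 and 14.3 in the untreated and 79.8 and 85.6 in the TWEAK libraries, which lay close together within each group. The percentiles were 68.9 and 68.5 without TWEAK and 96.5 and 96.1 with it, and the log2 difference was 2.56 (2.31 relative). Its window held 1 NF-kB match. Left-out libraries kept the difference in percentile between 27.4 and 27.8 points here, and between 64.7 and 88.6 points at the preceding site. The stricter thresholds moved the value here to 38.0 with a deposited value of at least 5, to 31.1 with equal list sizes and to 41.0 at 5 times the background.

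The strongest gained TGFA site, chr2:70517931-70518442, followed further along the gene, with enrichments of 27.0 and 40.6 in the TWEAK libraries and no peak in the untreated ones. Of 11080 gained sites, 145 had a lower TWEAK percentile at least as high as its 80.9, and its window held 1 NF-kB match. The other gained sites of TGFA were weaker, between 3.798 and 8.66 times the background, and 1 of them (chr2:70613470-70613977) lay in an intron of the neighbouring ADD2. Among its 19 shared sites the orders were mixed, with 2 lower (10.5%) and 4 higher (21.1%), where 35.4% and 15.8% of all were. Without untreated replicate 1, 9 were lower and 5 higher, where 54.7% and 22.3% of all were. Both lower sites were intergenic, and at chr2:70368719-70369250, 96483 bp from the nearest TGFA start, the enrichment was 17.0 and 15.7 without TWEAK and 12.5 and 8.66 with it, a difference of -21.2 percentile points.

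**Figure D3:**
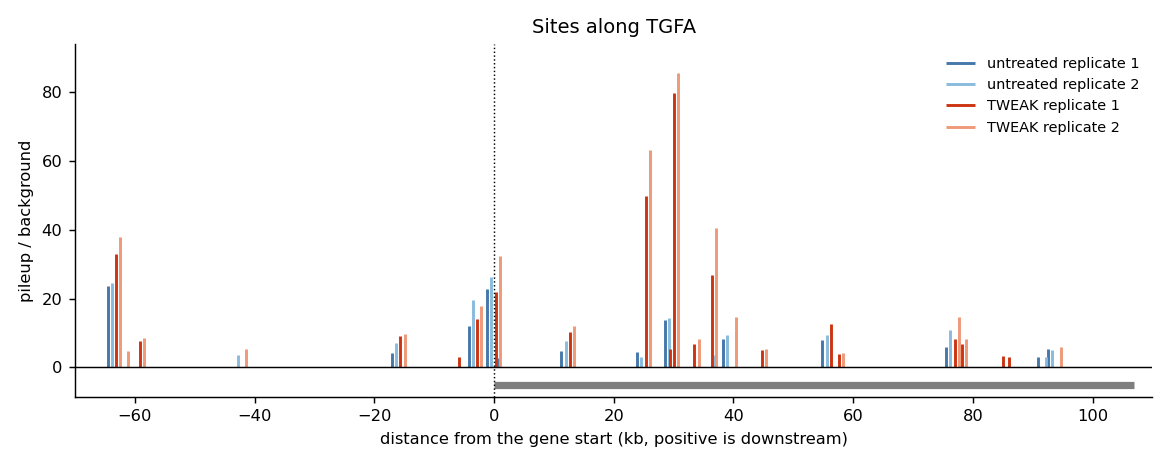
Vertical lines give the enrichment of each site by library along TGFA, at its distance from the gene start in kb, with the libraries of a site drawn side by side and the gene as a grey bar. The 3 intronic sites with the tallest red lines reached between 27.0 and 85.6 times the background with TWEAK, and the promoter at 0 stayed between 22.03 and 32.5 in all 4 libraries.

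HBEGF, the heparin-binding EGF-like growth factor, had 71 sites, with 2 gained (2.82%) and 0 lost, where 3.6% and 3.79% of all sites were. Among 30 shared sites 4 were higher and 4 lower (13.3% each), where 15.8% and 35.4% of all were. These counts moved with the libraries, to 7 gained and 7 lost without untreated replicate 1, against 6.54% and 15.9% of all sites. Without untreated replicate 2 there were 4 gained and 8 lost, against 7.63% and 11.5%. The latter gave 18 higher and 6 lower, against 31.4% and 42.8% of all shared sites. Leaving out TWEAK replicate 2 gave 17 and 4, against 30.6% and 42.0%. Leaving out TWEAK replicate 1 gave 6 and 13, against 20.2% and 57.6%. At 5 times the background 12 were higher and 1 lower, against 30.2% and 19.7%. Its promoter (chr5:140346506-140347042) was strongly open in all libraries, at 62.4 and 68.0 times the background without TWEAK and 66.8 and 69.3 with it. The percentiles of 95.2, 94.9, 94.8 and 93.8 put both TWEAK libraries lower by 0.747 points on average, and with peaks of at least 5 times the background that difference turned to 0.00893.

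A gained site downstream of HBEGF was the highest-ranked gain of the 9 genes, at 39.5 and 42.2 times the background. Only 65 of 11080 gained sites were as high in both TWEAK lists. A weak peak of untreated replicate 2, at 5.82 times the background, lay 39 bp away without overlapping it. TWEAK replicate 1 also had a peak at that neighbouring site, at 12.5 times the background. With no peak of the other treatment allowed within 500 bp, 19 sites near the 9 genes were gained, and this one was not among them.

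A further pair of HBEGF sites had a peak in both TWEAK lists and a weak one in untreated replicate 1 alone, a pattern looked at after the values were seen. The intronic site chr5:140338699-140339214 stood at 4.18 in untreated replicate 1, was absent from untreated replicate 2, and stood at 25.4 and 29.2 in the TWEAK libraries. The site chr5:140329614-140330172 stood at 3.90 in untreated replicate 1 and at 21.6 and 24.4 in the TWEAK libraries. The lower TWEAK peak exceeded the untreated peak by 55.0 and 54.6 percentile points, differences reached by 153 and 157 of the 17193 sites with this pattern. Around the 9 genes, 25 sites had peaks in both TWEAK lists and 1 untreated list, and in 12 of them (48.0%) both TWEAK peaks ranked higher, against 37.5% of all such sites. The opposite pattern, both untreated lists and 1 TWEAK list, was seen at 19 sites. In 5 of them (26.3%) both untreated peaks ranked higher, against 51% of all such sites.

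AREG encodes amphiregulin and EREG epiregulin, a pair of neighbouring EGFR ligand genes whose windows overlap. The AREG promoter (chr4:74445054-74445591) had enrichments of 45.4 and 59.0 in the untreated and 53.9 and 50.4 in the TWEAK libraries, which overlapped, as did the percentiles of 91.4, 93.4, 92.2 and 89.2. Corrected for the median of each library, both TWEAK enrichments were lower, with a relative log2 difference of -0.24. The EREG promoter (chr4:74364837-74366136) was the weakest of the 9, at 5.02 and 7.16 without TWEAK and 7.22 and 11.4 with it, and by percentile (33.1, 46.5, 42.8 and 51.2) the groups overlapped. Of 13 shared AREG sites 3 were higher and 3 lower (23.1% each), and of 16 at EREG 4 were higher and 4 lower (25.0% each). Of all shared sites 15.8% were higher and 35.4% lower. The 3 and 3 of AREG are all among those of EREG. At 5 times the background the counts were 3 and 0 at AREG and 6 and 1 at EREG, against 30.2% and 19.7% of all. Without untreated replicate 1 they were 5 and 7 at AREG and 7 and 8 at EREG, against 22.3% and 54.7%. Without untreated replicate 2 they were 7 and 5, and 7 and 6, against 31.4% and 42.8%. Without untreated replicate 2, 3 sites were gained at each gene, where 7.63% of all sites were.

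Downstream of AREG, opposite orders stood side by side. At chr4:74473095-74473618, a site outside the naming rule, the enrichment was 9.20 and 14.8 in the untreated and 25.4 and 36.8 in the TWEAK libraries. At chr4:74471211-74471736, less than 2 kb away, it was 6.41 and 10.3 without TWEAK and 5.32 and 7.04 with it, and the percentiles of 44.04 and 59.3 against 29.2 and 31.2 made this the largest lowering by rank near the 9 genes, at -21.5 points. The uncorrected enrichments overlapped at this second site, whereas after correction for the median of each library both TWEAK values lay below both untreated ones, with a relative log2 difference of -0.66. The gained site chr4:74545901-74546415 lay 97262 bp from the nearest AREG start, at 6.46 and 9.75 times the background. Of all gained sites 30.5% had a lower TWEAK percentile at least as high. Its window held 3 overlapping NF-kB matches in the palindromic stretch capitalised above.

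**Figure D4:**
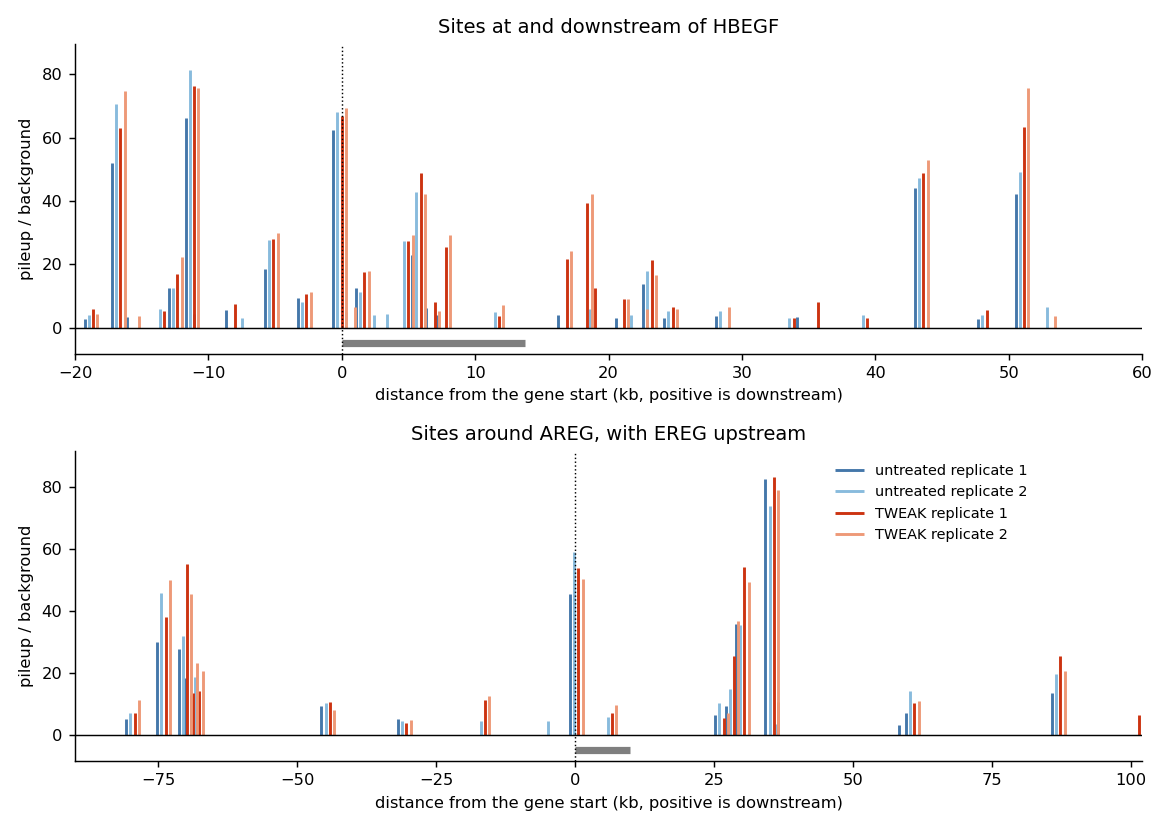
Vertical lines give the enrichment of each site by library at its distance in kb from the start of HBEGF (upper panel) or AREG (lower panel), with the libraries of a site drawn side by side and the gene as a grey bar. At the gained site downstream of HBEGF the TWEAK lines of 39.5 and 42.2 stand beside a single untreated line of 5.82 from the neighbouring site. That neighbour also has a TWEAK replicate 1 line of 12.5. The HBEGF and AREG promoters at 0 have similar lines in all 4 libraries.

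BTC, encoding betacellulin, had 16 sites, none gained or lost. Of 9 shared sites 0 were higher and 4 lower (44.4%), where 15.8% and 35.4% of all were. Without TWEAK replicate 2, 6 sites were gained and 0 lost, against 11.6% and 6.56% of all sites. Without untreated replicate 1 and without TWEAK replicate 1, 7 were lower, where 54.7% and 57.6% of all shared sites were. The promoter (chr4:74793810-74794943) was at 41.0 and 40.7 times the background in the untreated and at 46.7 and 47.1 in the TWEAK libraries. The percentiles of 90.0, 88.7, 90.3 and 88.1 overlapped, and relative to the median shared site the log2 difference was -0.05. The lower BTC site nearest the gene, chr4:74805448-74805966, was at 54.6 and 62.6 without TWEAK and at 41.0 and 45.5 with it. It was chosen after the values were seen.

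NRG1, the neuregulin that binds ERBB3 and ERBB4, had 4 sites in a window of 851.7 kb, or 0.470 per 100 kb, against 39.3 per 100 kb at EGFR. Parts of the gene farther than 100 kb from an annotated start were not counted. The window of the amplified ERBB2 held 99.8 sites per 100 kb, and a part of copy number in these densities was not tested. The only shared site lay 168 bp from an internal start (chr8:32548898-32549462). Its percentiles were 47.4 and 51.0 in the untreated and 63.0 and 65.1 in the TWEAK libraries, and its enrichment was 6.97, 8.05, 12.9 and 17.3. Among the promoter sites taken as the best-ranked of each gene this was the largest difference, at 14.8 percentile points (between 18.6 and 28.2 under the stricter thresholds), while the internal EGFR start described above differed by 20.4 points, and the groups did not overlap. Of 15156 protein-coding genes with a promoter site in all 4 lists, 8.37% were higher and 35.6% lower. The promoters closest to it in the 4 percentiles were those of CST5, TNFRSF1B and PDE6G, which differed from it by at most 3.77, 3.77 and 4.10 points. An intronic site 5881 bp from the nearest NRG1 start was gained (chr8:32554611-32555112), at 9.87 and 14.1 times the background.

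**Figure D5:**
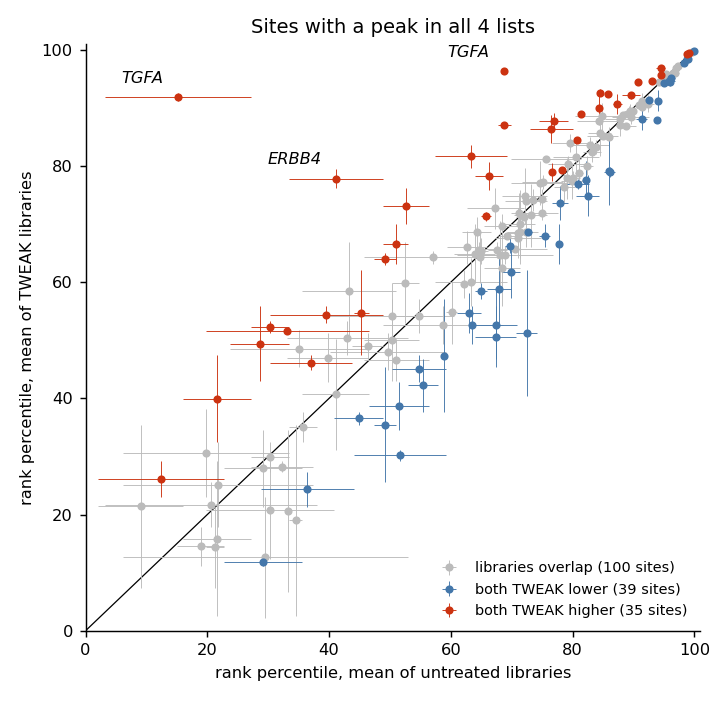
Each point is 1 of the 174 shared sites, at its mean rank percentile in the untreated (x) and TWEAK libraries (y), with lines spanning the 2 libraries of a group and the diagonal marking equal rank. The 3 named sites, 2 at TGFA and 1 at ERBB4, lie farthest above the diagonal, by 76.6, 27.6 and 36.7 points, and no site lies as far below it.

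Motif matches at the member sites were few. An NF-kB match lay in 3 of 23 gained sites (13.0%), 5 of 35 higher sites (14.3%), 3 of 39 lower sites (7.69%) and 1 of 10 lost sites (10.0%), against 6.21% of all sites, 20.1% of all gained, 12.7% of all higher, 3.94% of all lower and 4.28% of all lost sites. An AP-1 match lay in 4 of the gained (17.4%), 6 of the higher (17.1%), 3 of the lower (7.69%) and 0 of the 10 lost sites, against 9.01% of all sites, 16.6% of all gained, 22.1% of all higher, 5.99% of all lower and 4.90% of all lost ones. The TFAP2 consensus GCCNNNGGC was found in 2 of the gained (8.70%), 8 of the higher (22.9%), 6 of the lower (15.4%) and 0 of the lost sites, against 12.1% of all sites, 8.79% of all gained, 13.2% of all higher, 16.2% of all lower and 12.4% of all lost ones. These shares describe letters in the windows and do not show binding.

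A set of 21 other genes of the pathway was counted in the same way. They include ERBB2, further ligands such as EGF and NRG2, the sheddases ADAM10 and ADAM17, adaptors such as GRB2 and SHC1, and inhibitors such as ERRFI1 and SPRY4. Of their 1165 sites 35 were gained (3.004%) and 47 lost (4.03%), and of 528 shared sites 63 were higher (11.9%) and 215 lower (40.7%). The shares over all sites were 3.6% gained and 3.79% lost, near those of this set, and 15.8% higher and 35.4% lower. ERBB2, whose window holds the most sites, had 9 higher and 69 lower of 117 shared sites. ERRFI1, a feedback inhibitor of EGFR, had 6 gained and 0 lost sites, the same counts as TGFA. Of the 21 genes 6 had more gained than lost sites, 8 had more lost and 7 had as many of each, and 12 of the sites are also counted for the 9 genes.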

How the data were processed

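ATAC-seq peak lists of 2 untreated and 2 TWEAK libraries of SKBR3 cells were analysed, with groups and replicate numbers taken from the sample titles. The submitters' processing notes name Trimmomatic, Bowtie2, Picard, MACS2 and the build hg38, and versions and peak-calling settings were not given in the sources used here. The authors deposited 1 list per library, so replicates were not pooled. The deposited value of each peak, unnamed in the files, was read from the values as the authors' -log10 p of a Poisson test against 1 background per list. From it the pileup was recovered, which another convention of the caller would shift by 1. Every peak was 501 bp wide, which limits what its width can show.

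Sites, start-site distances and motif counts were computed with Python 3.11.15, numpy 2.4.6, pandas 2.3.3 and scipy 1.17.1, figures were drawn with matplotlib 3.10.9, and the code was tested on simulated data. The study's differential test needs reads, so lists were compared by presence and rank. The TGACTCA motif equals the AP-1 form with either middle base, since both strands were read. Promoter windows came from RefSeq and 7 of 9 members matched. The study describes its ATAC-seq replicates as biological and its cell line experiments as repeated on separate days, without assigning these libraries to days, and p-values over these libraries would measure only their own spread.

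The members, motifs, gene lists and rules were chosen with earlier results of these data known. Sites named were each gene's promoter site (within 1 kb of a start) and strongest other site, the gained and lost sites (at most the 12 best-ranked), and the 5 higher and 5 lower sites with the largest differences. Not all of these are described, and sequences are shown for a few of them. Those of a site at ERBB4 and one at HBEGF are not reported here. Alternatives were stricter thresholds, equal list sizes, other distances and overlaps, a replicate block and each library left out, and those named in the closing section as chosen later.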

Additional observations from a re-analysis of the deposited data

How the results depend on the processing

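The counts near the 9 genes moved with the thresholds. With a deposited value of at least 5, 15 sites were gained (5.51%), 2 lost (0.735%) and 25 lower (16.1%), against 4.82%, 3.36% and 28.5% of all. At 5 times the background, 2 were lost (0.733%), 57 higher (38.8%) and 16 lower (10.9%), against 2.33%, 30.2% and 19.7% of all. Within 200 kb of a start, 16 were lost, 53 higher and 62 lower, and from the gene start alone 15 were gained and 6 lost. Above the 50th percentile in every list with a peak, 3 were gained (2.22%), 0 lost and 22 higher (18.3%), against 1.99%, 0.706% and 16.3% of all. Of 2 settings chosen after the data were seen, the first allowed no peak of the other treatment within 500 bp and gave 5 lost sites. The second required the nearest protein-coding gene to be a member and gave 25 lower (22.9%), against 35.4% of all shared sites. Another such setting, the order of scaled enrichment, gave 44 higher (25.3%) and 45 lower (25.9%), against 18.5% and 36.4% of all.

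Leaving out a library gave 34 to 64 gained, 17 to 54 lost, 46 to 79 higher and 53 to 87 lower sites, since fewer lists then define each pattern. Without untreated replicates 1 and 2 and TWEAK replicates 1 and 2 in turn, 27.0%, 41.1%, 25.4% and 42.7% were higher. Of all shared sites 22.3%, 31.4%, 20.2% and 30.6% were higher. In the same order 46.0%, 28.6%, 47.0% and 29.7% were lower, against 54.7%, 42.8%, 57.6% and 42.0% of all. With each library left out the share of gained sites stayed above that of all sites, whereas at 5 times the background it was 5.86% against 5.90%.

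The EGFR promoter difference was 1.91 percentile points with a value of at least 5, 1.53 with equal list sizes and 2.47 at 5 times the background, and that of NRG1 was 23.1, 18.6 and 28.2. At 5 times the background that of EREG moved to 19.9, and 4 changed sign, from -0.747 to 0.00893 for HBEGF, -0.158 to 1.85 for BTC, -2.22 to 0.414 for TGFA and -1.04 to 0.476 for ERBB4. The cause was not tested. With a library left out the differences ranged from 0.923 to 1.37 for EGFR, -2.28 to -0.230 for ERBB3, -4.06 to 1.99 for ERBB4, -3.16 to -0.155 for AREG, 0.520 to 13.96 for EREG, -1.25 to 0.931 for BTC, -1.25 to -0.240 for HBEGF, -4.42 to -0.0204 for TGFA and 13.0 to 16.6 for NRG1.

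The share of a list's peaks near the 9 genes was 0.126% and 0.124% in the untreated and 0.138% and 0.134% in the TWEAK libraries, a difference of 0.0110 points that ranged from 0.00864 to 0.0133 with a library left out. Deviations of same-numbered libraries had a correlation of -0.00606, so the numbers were not taken as pairs. With the replicate number as a block, 23 sites were gained, 10 lost, 42 higher and 54 lower, and the promoter differences and the share of peaks kept their values. Of all shared sites, 19.8% were then higher and 42.3% lower. Counts by gene and single sites were not run with the block.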
